A study of Rattus norvegicus with 12 samples.

Results

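The major acute phase proteins of rat liver were examined as 10 genes, chosen by name: A2M, LCN2, HP, ORM1, CRP, FGA, FGB, FGG, LBP and HPX. All 10 were found among the 14692 genes listed in the deposited table, and each averaged at least 1 RPKM (reads scaled by transcript length and by the size of the library). RNA was sequenced from whole liver of male Sprague Dawley rats aged 4 to 5 months, collected 0, 4, 12 and 24 h after partial hepatectomy (PH), the surgical removal of most of the liver. All rats had an operation 24 h before PH and a duodenal catheter for continuous saline infusion. In Control rats the operation was a sham biliary fistula, whereas the other two groups carried a biliary fistula that drained bile to the outside, and 1 of these also received sodium taurocholate in the duodenum, 0.5 mg per g body weight per day from 12 h before PH. The sample titles call the fistula groups BF and BA, and the study uses BF for the fistula alone. The source names and descriptions, however, give the infusion to the samples titled BF. The groups are therefore named here by their titles, and which of them had taurocholate cannot be told from the labels. Both carried the fistula under either reading, so the comparison of each with Control is a comparison of fistula with sham, with or without the infusion.

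The table has 12 columns, 1 for each group and time, and the authors averaged a run of 1 rat with a run of RNA combined from 3 rats in each. Neither a spread between rats nor a read depth can be had from such averages, so values carry no error and differences were not tested. A gene was said to rise or fall where its log2 ratio, taken after adding 1 RPKM to both values, was at least 1 in size (2-fold). The share of the 8459 genes averaging 1 RPKM or more that did the same is given beside each first count. It was not computed for rescaled columns. In the BA column at 4 h albumin (ALB) was at 303637 RPKM, against 41049 to 99928 RPKM in the others, and the RPKM of all genes summed to 982826 there and to between 727435 and 785092 elsewhere. Scaling on the total outside ALB, chosen after seeing the data, left every count of the 10 genes within 1.5 times that given here. Pancreatic genes were seen in the BF column at 12 h, where CTRB1 was at 84.7 RPKM against at most 0.57 in the other columns. Of 8 hepatocyte markers 7 were found, all above 28 RPKM in every column, and they moved unequally. At 0 h 0 of the 7 were 2-fold from Control in BF and 1, TTR, was 2-fold lower in BA. TTR had 20517 RPKM in Control, 10390 in BF and 9888 in BA, and SERPINA6 had 606.5, 322.4 and 312.3. Over all columns TTR spanned 5427 to 20517 RPKM, SERPINA6 28.4 to 606.5, TAT 381.2 to 3354, CPS1 719.5 to 2107, APOB 906.6 to 1685 and HNF4A 117.5 to 217.9. The part of these shifts in the values of the 10 genes was not tested. In whole liver a change in the number of cells of one type and a change of RNA per cell cannot be told apart.

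The acute phase response is the shift in plasma protein synthesis by which the liver answers tissue injury or infection. Cytokines of the IL-6 family act on hepatocytes through the shared receptor subunit gp130 and the transcription factor STAT3, while IL-1 acts through NF-kB and C/EBP factors. In the rat, fibrinogen and alpha-2-macroglobulin are classic IL-6 type genes, and orosomucoid is the textbook example of a gene that needs IL-1 and glucocorticoid as well. The proteins serve clotting, protease inhibition, the capture of hemoglobin, heme and iron, and the recognition of bacteria.

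The sequences just before the transcription starts of these genes are shown because transcription factors of this response are known to act through such regions, and because 3 of the genes, those of fibrinogen, moved almost in step. RefSeq promoter windows (build GRCr8) were found for 7 of the 10 genes, and the 250 bases before the start were searched on both strands. The letters searched were TTCNNNGAA (STAT), CTGGGAA (the core of the acute phase element, which can lie within a STAT match), TTGCNNAA (C/EBP), an NF-kB motif and the box TATAAA. Windows of the fibrinogen genes, of LCN2 and ORM1, which rose strongly, and of CRP, which met the 2-fold criterion in no comparison, are printed 5′ to 3′ with matches to the STAT, core and C/EBP letters in capitals.
FGA (chr2:170671919-170672168, plus strand): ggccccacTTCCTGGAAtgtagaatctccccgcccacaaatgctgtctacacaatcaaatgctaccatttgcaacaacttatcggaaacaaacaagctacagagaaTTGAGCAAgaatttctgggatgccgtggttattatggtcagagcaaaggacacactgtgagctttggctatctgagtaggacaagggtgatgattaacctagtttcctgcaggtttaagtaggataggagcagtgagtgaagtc
FGB (chr2:170700876-170701125, minus strand): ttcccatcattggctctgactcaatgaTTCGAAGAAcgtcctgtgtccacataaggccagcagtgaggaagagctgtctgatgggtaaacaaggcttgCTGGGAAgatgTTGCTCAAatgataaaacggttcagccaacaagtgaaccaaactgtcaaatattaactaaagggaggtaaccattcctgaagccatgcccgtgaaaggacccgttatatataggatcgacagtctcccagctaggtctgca
FGG (chr2:170652833-170653082, plus strand): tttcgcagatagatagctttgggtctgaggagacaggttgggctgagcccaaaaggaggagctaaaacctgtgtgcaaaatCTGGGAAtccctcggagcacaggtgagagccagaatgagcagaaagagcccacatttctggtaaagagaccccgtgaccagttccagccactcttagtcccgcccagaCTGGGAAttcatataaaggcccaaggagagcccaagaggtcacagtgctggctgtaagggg
LCN2 (chr3:36081781-36082030, minus strand): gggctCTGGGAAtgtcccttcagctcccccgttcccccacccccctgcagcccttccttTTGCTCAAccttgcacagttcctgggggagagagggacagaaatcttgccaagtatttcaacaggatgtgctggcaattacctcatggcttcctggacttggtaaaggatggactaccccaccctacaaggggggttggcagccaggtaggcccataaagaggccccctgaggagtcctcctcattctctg
ORM1 (chr5:81788259-81788508, plus strand): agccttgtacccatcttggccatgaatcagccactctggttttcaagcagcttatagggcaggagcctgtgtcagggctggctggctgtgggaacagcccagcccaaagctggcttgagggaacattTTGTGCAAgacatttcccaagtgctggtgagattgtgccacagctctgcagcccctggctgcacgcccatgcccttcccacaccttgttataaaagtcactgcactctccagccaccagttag
CRP (chr13:87693812-87694061, plus strand): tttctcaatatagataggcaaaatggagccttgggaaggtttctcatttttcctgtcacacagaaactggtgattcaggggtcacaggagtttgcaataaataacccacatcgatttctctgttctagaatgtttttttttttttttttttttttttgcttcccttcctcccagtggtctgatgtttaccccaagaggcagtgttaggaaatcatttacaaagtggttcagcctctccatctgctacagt

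A C/EBP match was present for 5 of the 7 genes (FGA, FGB, HPX, LCN2 and ORM1), where 9.22% of 33469 promoter windows of the same length had one. The core CTGGGAA was present for 3 (FGB, FGG and LCN2), beside 9.56% of all windows, and FGG held it at 2 places. STAT matches were found for 2, FGA and FGB, beside 7.67% of all windows. FGG and ORM1 had the box TATAAA, found in 12.9% of all windows. The NF-kB motif was in 0 of the 7 and in 4.36% of all windows. The CRP window had no match to any searched motif. FGA has a second RefSeq start 18 bases downstream, whose window no longer includes the STAT match. These matches are letters in a short window and are no measure of binding.

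The fistula operation was compared with the sham operation at 0 h, before any effect of PH. Of the 10 genes 9 were at least 2-fold higher in BF than in Control and the same 9 were so in BA, while CRP was 1.24-fold higher in BF and 1.00-fold in BA. Among all genes 1.73% were at least 2-fold higher in BF and 1.87% in BA. None of the 10 was lower by 2-fold in either group, beside 2.16% and 2.15% of all genes. The median log2 ratio of the 10 was 1.95 in BF and 1.94 in BA, whereas the median of all genes was -0.18 and -0.097. Folds given with a value, here and below, are ratios of RPKM with nothing added. The differences spanned a wide range, from 2.21-fold in FGG to 266.6-fold in LCN2 in BF. In BA they spanned 3.22-fold to 458-fold in the same genes. LCN2 was at only 3.03 RPKM in Control. After adding 1 RPKM, A2M had the largest log2 ratio in BF, 7.69 against 7.65 for LCN2. All columns of the 10 genes are drawn in the plot of RPKM against time.

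**Figure D1:**
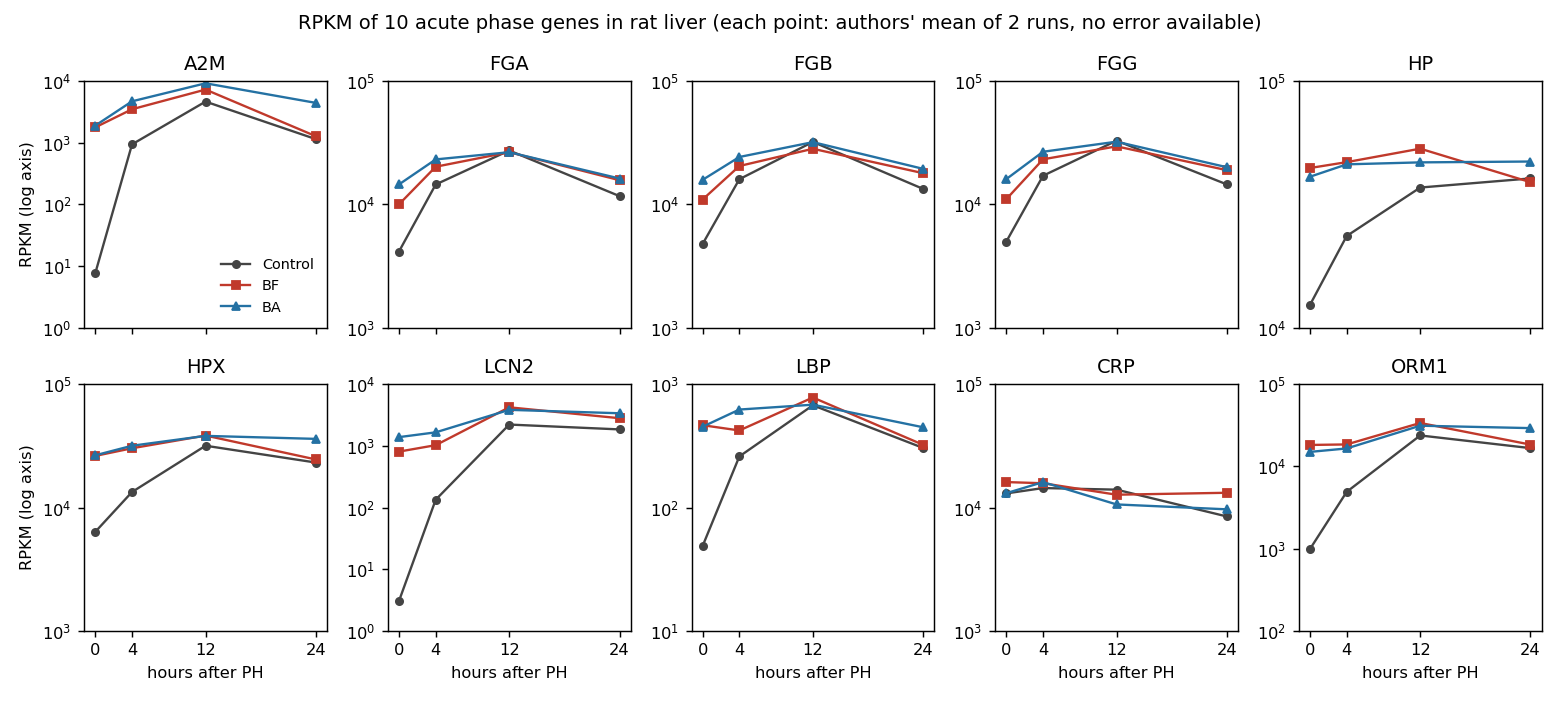
RPKM (log axis) of each gene against hours after PH, with 1 line for Control (circles), BF (squares) and BA (triangles); each point is the authors' mean of 2 runs and has no error. At 0 h Control is lowest for all 10 genes, by 2-fold or more for 9 (A2M at 7.61 RPKM against 1772 in BF and 1892 in BA), the lines lie closer together at 12 h, and CRP stays between 8463 and 16089 RPKM.

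A2M, alpha-2-macroglobulin, is a broad protease inhibitor and the hallmark acute phase protein of the rat. In Control it was at 7.61 RPKM at 0 h, 939.8 at 4 h, 4637 at 12 h and 1142 at 24 h. In BF it was at 1772, 3486, 7272 and 1272 RPKM at the same times, and in BA at 1892, 4688, 9188 and 4421 RPKM. Control lay below both fistula groups at every time, and the gap narrowed from 232.9-fold for BF and 248.6-fold for BA before PH to 1.57-fold for BF and 1.98-fold for BA at 12 h. On the log2 scale the ratio before PH was 7.69 for BF and 7.78 for BA. Among all genes A2M ranked 5207 in Control at 0 h, 49 in BF and 43 in BA.

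LCN2, lipocalin 2, binds bacterial siderophores and so withholds iron. With nothing added to the RPKM it had the widest range of the 10, 1396-fold between its lowest and highest column, ahead of A2M with 1207-fold. After adding 1 RPKM the range of A2M was slightly the wider. In Control LCN2 rose from 3.03 RPKM at 0 h to 133.9 at 4 h and 2220 at 12 h, and was at 1852 at 24 h. BF was at 807.7, 1028, 4228 and 2815 RPKM, and BA at 1388, 1660, 3847 and 3385 RPKM. Every fistula column at 0 and 4 h lay above Control at 4 h, and LCN2 was the slowest of the group to climb in Control, having reached 6.03% of its highest value at 4 h when A2M was at 20.3% and FGA at 53.0%. LCN2 is also a granule protein of neutrophils. Of 8 neutrophil markers 7 were found, and 2 had a mean of at least 1 RPKM. Their summed level was 3.33 RPKM in Control at 0 h, 22.9 in BF and 22.5 in BA, and it ranged from 27.3 to 63.2 RPKM in the columns after PH. This sum rested chiefly on S100A8 and S100A9, while MPO did not exceed 0.07 RPKM, ELANE 0.03 and CAMP 0.25 in any column. CSF3R, below 1 RPKM throughout, was also lowest before PH under sham (0.22), where BF had 0.70 and BA 0.53. Its maximum, 0.96, was reached by Control at 12 h. NGP went the other way, since its maximum, 0.22, was the Control value at 0 h. The part of such cells in the LCN2 values was not tested.

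The 3 chains of fibrinogen, the precursor of fibrin in blood clots, are encoded by neighbouring genes on chromosome 2 of the GRCr8 annotation. FGA was at 4133, 14477, 27320 and 11651 RPKM in Control at 0, 4, 12 and 24 h, at 9983, 20169, 26472 and 15685 in BF, and at 14486, 23125, 26459 and 16190 in BA. FGB was at 4764, 15981, 32075 and 13324 RPKM in Control, 10930, 20446, 28210 and 17881 in BF, and 15792, 24197, 31943 and 19388 in BA. FGG was at 4976, 17043, 32814 and 14499 RPKM in Control, 10997, 23169, 29520 and 18914 in BF, and 16003, 26687, 32201 and 19989 in BA. The chains kept close proportions, since per length FGA stayed between 0.804 and 0.908 of FGG and FGB between 0.882 and 0.994 of FGG over all 12 columns. Their log2 ratios at 0 h against Control were the smallest of the 9 genes in BF, between 1.14 (FGG) and 1.27 (FGA), and lay between 1.69 and 1.81 in BA. BF was lower than BA in all 3 chains at 0 h, at 0.69 of its value for each, which is less than a 2-fold difference. Unlike the other genes that rose, the chains had their highest value of all columns in Control, at 12 h.

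HP, haptoglobin, binds free hemoglobin, and HPX, hemopexin, binds free heme. HP was at 12347, 23519, 36977 and 40271 RPKM in Control at 0, 4, 12 and 24 h, at 44376, 46885, 53169 and 38869 in BF, and at 40904, 45927, 46778 and 47148 in BA. It was the most abundant transcript of all in BF and BA at 12 h and ranked second in 9 of the other columns, behind ALB. HPX was at 6349, 13371, 31723 and 23173 RPKM in Control, 26231, 30264, 38386 and 24547 in BF, and 26538, 31719, 38137 and 36057 in BA. HP was already near its highest level before PH in the fistula groups, and HPX was less so. At 0 h HP stood at 83.5% of the highest BF value in BF and at 86.8% of the highest BA value in BA, compared with 30.7% in Control, and HPX stood at 68.3% in BF and 69.6% in BA. The log2 ratio against Control at 0 h was 1.85 in BF and 1.73 in BA for HP, and 2.05 and 2.06 for HPX.

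ORM1, orosomucoid or alpha-1-acid glycoprotein, is a plasma carrier of lipophilic compounds with effects on immune cells. It was at 986.3, 4907, 23834 and 16707 RPKM in Control, at 18261, 18532, 33818 and 18439 in BF, and at 15033, 16559, 31322 and 29270 in BA. Before PH it exceeded Control by a log2 ratio of 4.21 in BF and 3.93 in BA, behind only A2M and LCN2 among the 10. In both fistula groups it stayed below the 2-fold criterion in the first 4 h, with log2 ratios of 0.02 in BF and 0.14 in BA, whereas in Control it rose with a log2 ratio of 2.31.

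LBP, the lipopolysaccharide binding protein, hands bacterial lipopolysaccharide to CD14. Its highest value was the lowest among the 10. It was at 48.7, 259.8, 675.2 and 304.2 RPKM in Control, 465.5, 421.9, 781.0 and 322.5 in BF, and 452.4, 623.7, 682.9 and 447.8 in BA. Before PH it was higher than in Control by a log2 ratio of 3.23 in BF and 3.19 in BA. CRP, C-reactive protein, is a pentraxin that binds phosphocholine on bacteria and damaged cells, and in the rat it is known to be abundant in plasma without injury. It was at 13016, 14389, 13967 and 8463 RPKM in Control, 16089, 15742, 12707 and 13174 in BF, and 13069, 16078, 10595 and 9670 in BA. Its highest and lowest columns were 1.90-fold apart, so that CRP met the 2-fold criterion in no comparison of groups or times.

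**Figure D2:**
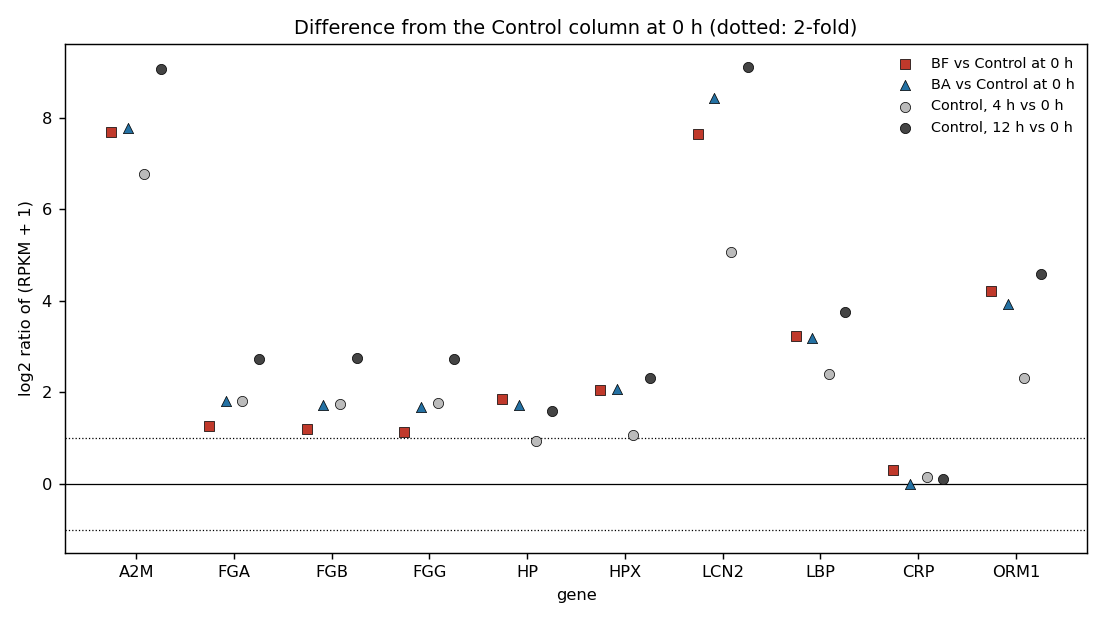
Log2 ratio of (RPKM + 1) to the Control column at 0 h for each gene, in BF (squares) and BA (triangles) at 0 h and in Control at 4 h (light circles) and 12 h (dark circles), with dotted lines at 2-fold. The 4 values of a gene share the same Control column, 9 genes lie above the upper line in BF and BA at 0 h, and CRP lies between 0.01 and 0.31.

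After PH in Control rats 8 of the 10 genes had risen by 4 h, when 4.01% of all genes had risen and 5.19% had fallen, and 9 by 12 h, with 3.96% risen and 9.95% fallen. At 24 h 9 were still 2-fold above 0 h, beside 8.29% of all genes above and 3.03% below. From 4 to 12 h 6 rose further (A2M, FGB, HPX, LBP, LCN2 and ORM1), beside 2.73% of all genes up and 5.18% down. The median log2 ratio of the 10 was 1.79 at 4 h and 2.74 at 12 h, with the median of all genes at -0.19 and -0.16. HP missed the criterion at 4 h with a log2 ratio of 0.93. At 12 h the log2 ratios were 9.11 in LCN2, 9.07 in A2M, 4.59 in ORM1, 3.77 in LBP, 2.32 in HPX and 1.58 in HP, and from 2.72 to 2.75 in the fibrinogen chains. LCN2, A2M, ORM1 and LBP thus had the largest ratios here, as at 0 h in the fistula groups. Both sets of ratios use the same Control column, and this likeness is not a separate result. Below them the order differed. The fibrinogen chains exceeded HPX and HP in Control at 12 h, whereas HPX exceeded the chains at 0 h in BF and BA, and HP did so in BF. At 0 h the fistula columns had reached from 33.5% (FGG in BF) to 120% (HP in BF) of the Control level at 12 h in the 9 genes. For A2M this share was 38.2% in BF and 40.8% in BA, for ORM1 76.6% and 63.1%, and for HPX 82.7% and 83.7%.

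Measured as ratios to the already raised 0 h column of the same group, fewer of the 10 genes rose after PH with a fistula. In RPKM, however, A2M and LCN2 gained more by 12 h in each fistula group than under sham. The remaining genes gained less than under sham, or fell. By 4 h 2 genes had risen in BF (FGA and FGG), where 5.13% of all genes rose and 6.94% fell, and 1 in BA (A2M), where 4.61% rose and 13.2% fell. By 12 h 5 had risen in BF, namely A2M, FGA, FGB, FGG and LCN2, and 5 in BA, namely A2M, FGB, FGG, LCN2 and ORM1, beside 2.46% and 1.29% of all genes up and 5.15% and 5.77% down. From 4 to 12 h 2 rose in BF (A2M and LCN2), beside 2.6% of all genes up and 2.59% down, and 1 in BA (LCN2), beside 6.35% and 5.24%. Scaled on the RPKM outside the 10 genes, 4 rose from 4 to 12 h in BF and 4 in BA, where the median log2 ratio went from 0.27 to 0.94. At 24 h 1 gene was 2-fold above 0 h in BF (LCN2), beside 9.27% of all genes above and 1.88% below, and 2 in BA (A2M and LCN2), beside 3.83% and 1.41%. The largest log2 ratios at 12 h were 2.39 for LCN2 in BF and 2.28 for A2M in BA. HP had log2 ratios of 0.26 in BF and 0.19 in BA at 12 h. LBP in BF went from 465.5 to 421.9 RPKM in the first 4 h while it rose in Control, from 48.7 to 259.8. Columns scaled on the RPKM outside the 10 genes gave 4 risen genes in BF and 0 in BA at 4 h. The RPKM outside the 10 genes includes ALB, which was at 303637 RPKM in BA at 4 h.

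The gap between fistula and sham narrowed from 0 to 12 h. At 4 h, 4 genes were still at least 2-fold higher in BF than in Control (A2M, HPX, LCN2 and ORM1), beside 1.19% of all genes higher and 3.16% lower, and 5 in BA (the same 4 and LBP), beside 2.02% and 5.26%. The largest log2 ratio at 4 h was that of LCN2, 2.93 in BF and 3.62 in BA. At 12 h 0 of the 10 were 2-fold higher in either group, beside 1.84% of all genes in BF and 0.591% in BA, and 0 were lower, beside 1.68% and 1.12%. With such small shares a count of 0 among 10 says little by itself. The median log2 ratio was 0.24 in BF and 0.14 in BA, after 1.95 and 1.94 at 0 h. A2M in BA was just inside the limit at 12 h, with 0.99. LCN2 was still 1.90-fold above Control in BF and 1.73-fold in BA, and A2M 1.57-fold in BF. CRP and the fibrinogen chains were lower than in Control. The log2 ratios of the fibrinogen chains at 12 h lay between -0.19 and -0.01 in both groups.

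**Figure D3:**
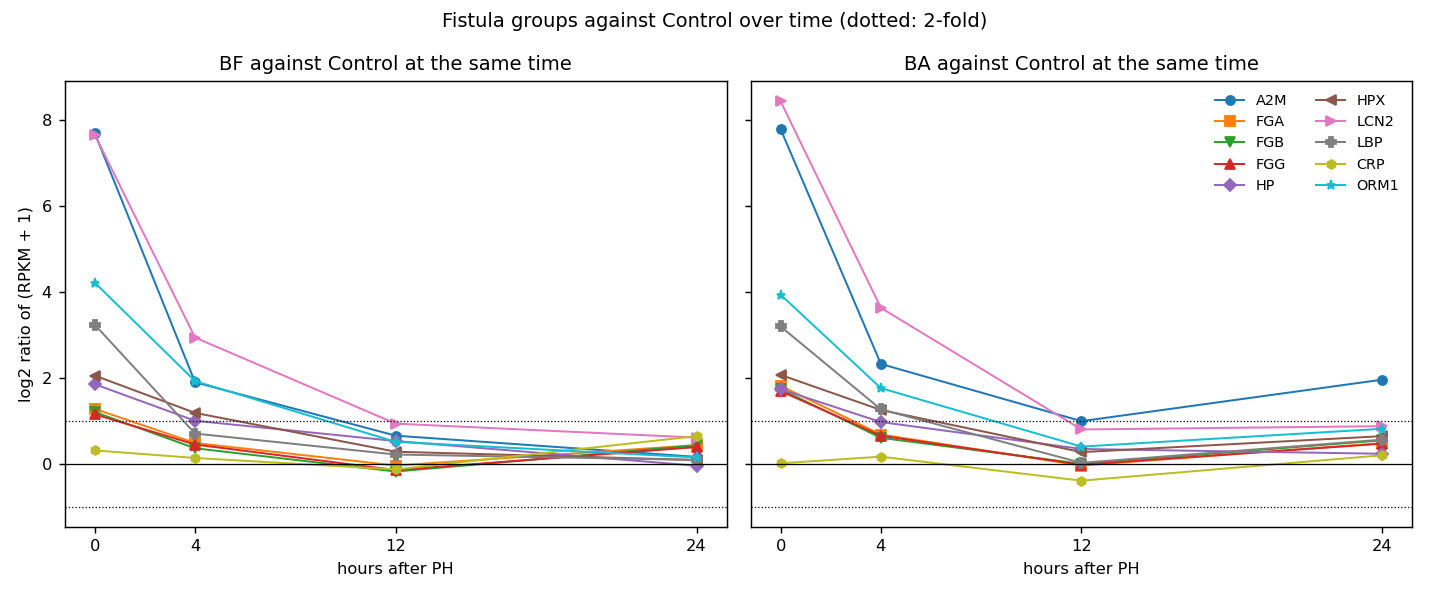
Log2 ratio of (RPKM + 1) of BF (left) and BA (right) to Control at the same hour after PH, 1 line per gene, with dotted lines at 2-fold. All 10 lines of each panel lie at or below 0.99 at 12 h, and at 24 h A2M in BA stands apart at 1.95.

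At 24 h the genes differed in how much of the 12 h level was left, with a clearer split in Control and BA than in BF. In Control 5 genes fell between 12 and 24 h, A2M, the 3 fibrinogen chains and LBP, beside 1.3% of all genes down and 11.8% up. A2M kept 24.6% of its 12 h level, the chains from 41.5% to 44.2% and LBP 45.1%. The level left was higher in ORM1 (70.1%), HPX (73.0%), LCN2 (83.4%) and HP (109%). CRP lay between these sets in Control, with 60.6%, and kept 104% in BF and 91.3% in BA. In BF A2M kept 17.5% and LBP 41.3%, and these 2 genes fell, beside 0.721% of all genes down and 7.28% up. In BA only A2M fell among the 10, to 48.1%, beside 0.922% of all genes down and 7.52% up. HP, HPX, LCN2 and ORM1 kept between 54.5% and 73.1% in BF, and between 88.0% and 101% in BA. The fibrinogen chains kept from 59.3% to 64.1% in BF, inside the BF range of those genes. In BA the chains kept from 60.7% to 62.1% and LBP 65.6%, below the BA range of those genes. The median of all genes rose by 0.37 in Control, 0.35 in BF and 0.28 in BA over this interval. With each column rescaled on its median gene, 8 of the 10 fell in Control, 8 in BF and 5 in BA. This rescaling lowers the ratios of all genes over this interval, and the share of all genes that fell under it was not computed.

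**Figure D4:**
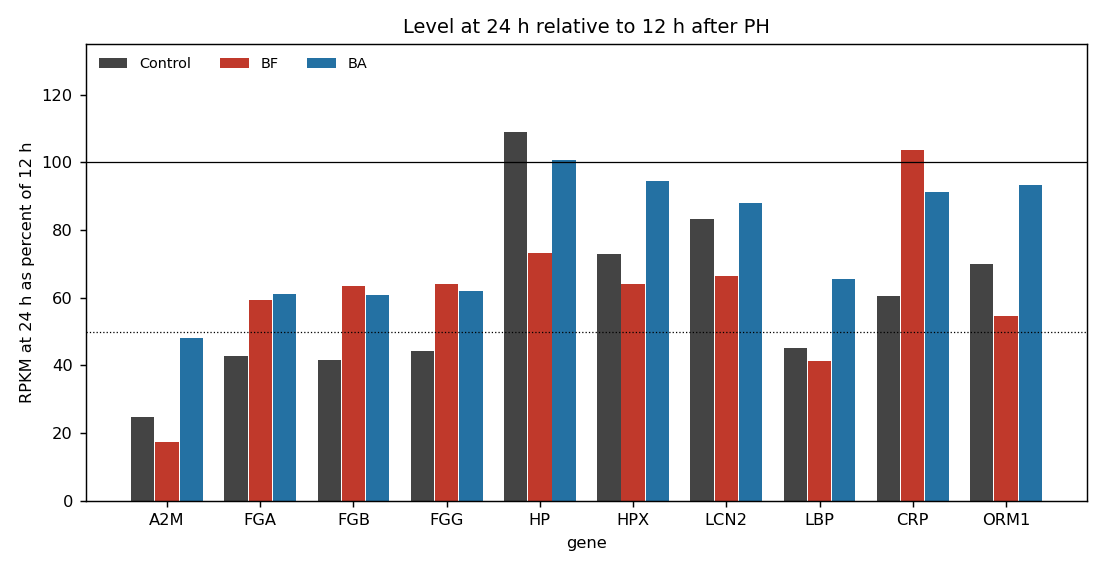
RPKM at 24 h as percent of the RPKM at 12 h for each gene in Control, BF and BA, with lines at 100 and 50 percent; each bar is a ratio of 2 averaged columns and has no error. A2M is lowest in all 3 groups (24.6, 17.5 and 48.1 percent), and HP, HPX, LCN2 and ORM1 are higher in BA than in BF.

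BF and BA were also compared with each other at each time. At 0, 4 and 12 h 0 of the 10 genes were 2-fold apart in either direction, beside 0.426% of all genes higher and 1.39% lower in BF at 0 h, 2.39% and 2.33% at 4 h, and 1.16% and 0.757% at 12 h. So few of all genes were 2-fold apart that a count of 0 among 10 says little about these genes. Smaller differences were present. The largest difference before PH was that of LCN2, whose log2 ratio of BF to BA was -0.78, and the fibrinogen chains in BF were at 0.69 of BA. At 4 h LCN2 in BF was at 0.62 of BA and LBP at 0.68, while HP was at 1.02 and ORM1 at 1.12. At 24 h 9 of the 10 had the lower value in BF, by less than 2-fold except for A2M, which was at 1272 RPKM in BF and 4421 in BA, a log2 ratio of -1.80. Among all 8459 genes 3180 had the lower value in BF at that time and 5245 the higher. At least 2-fold lower in BF were 0.969% of all genes, and 0.887% were at least 2-fold higher. Against Control at 24 h A2M had a log2 ratio of 0.16 in BF and 1.95 in BA, and it was the 1 gene of the 10 that was 2-fold higher in BA, beside 0.721% of all genes higher and 1.32% lower. Rescaled on the median gene, 3 of the 10 were 2-fold higher in BA at 24 h (A2M, LCN2 and ORM1), a count without a share of all genes beside it. In BF 0 of the 10 were 2-fold from Control at 24 h, beside 0.768% of all genes higher and 1.31% lower. Such small shares again make a count of 0 among 10 say little. Between BF and BA, ORM1 followed A2M, at 18439 RPKM in BF and 29270 in BA, and then HPX, at 24547 and 36057. CRP was the gene with the higher value in BF, 13174 against 9670 RPKM. Which of these groups had taurocholate depends on the reading of the labels.

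Together the 10 genes held a large part of the summed RPKM, which is scaled by transcript length and so is not a share of the reads. Their summed RPKM was 6.25% of that of all genes in Control at 0 h, 14.3% at 4 h, 28.1% at 12 h and 17.9% at 24 h. In BF the share was 17.8%, 23.5%, 31.5% and 20.5%, and in BA 18.9%, 19.5%, 31.8% and 24.3%. Without ALB the share in BA at 4 h was 28.2%, compared with 26.2% in BF, so that the low share of that column moved with its ALB value. The number of the 10 among the 10 most abundant transcripts of a column was 2 in Control at 0 h and from 5 to 7 in the other columns. Since RPKM is a share of each library, a rise of such abundant genes lowers the values of all others.

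**Figure D5:**
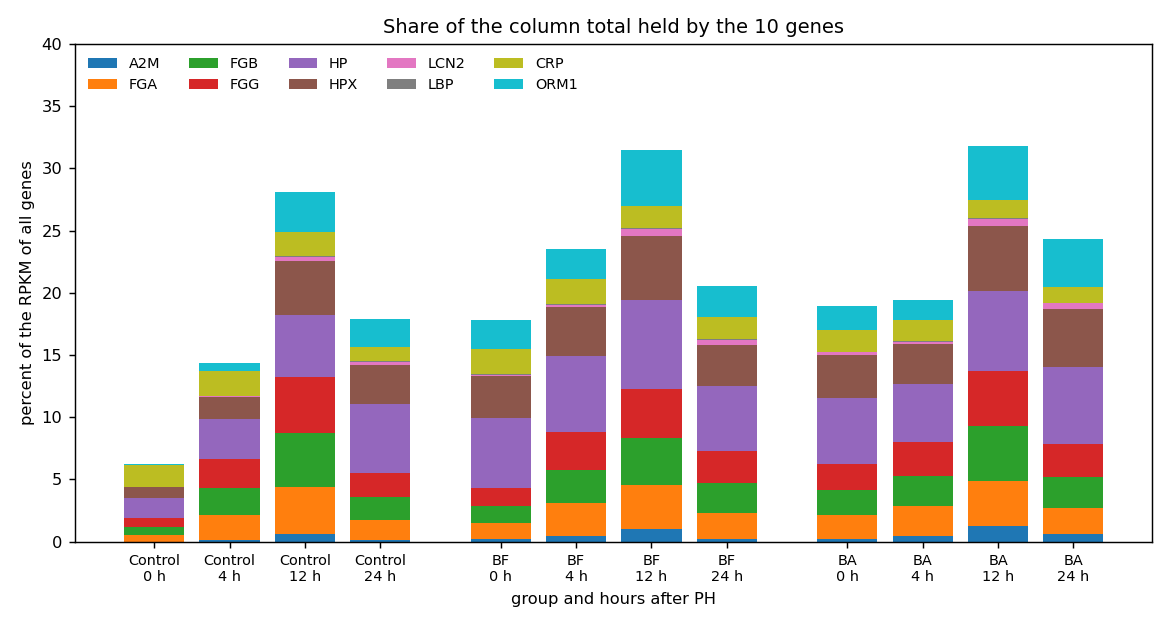
Percent of the RPKM of all genes held by each of the 10 genes, stacked, for the 12 columns in order of group and hours after PH. The stack is 6.25 percent in Control at 0 h, 17.8 in BF and 18.9 in BA, and reaches 28.1, 31.5 and 31.8 percent at 12 h.

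Over the 12 columns the profiles of 9 of the genes ran close together and that of CRP did not. The Pearson correlation of log2(RPKM + 1) lay between 0.76 and 1.00 in the 36 pairs without CRP, and between 0.99 and 1.00 in the 3 pairs of fibrinogen chains. In the 9 pairs with CRP it lay between -0.23 and 0.053. These are descriptions over 12 columns that share their times and groups, and the Control column at 0 h, the lowest for all 9, weighs on each. Outside the 10, the genes with the highest correlation to their mean profile were LOC360228 (WDNM1-like protein, 0.96), C4BPB (the beta chain of complement C4b-binding protein, 0.95), S100A8 (0.94), KNG1L1 (T-kininogen II, 0.94) and GNAT1 (rod-type transducin alpha, 0.93). LOC360228 was at 66.2 RPKM in Control at 0 h, 1316 in BF and 1556 in BA, and at 2031 in Control at 12 h. By ranks in place of values 0 of these 5 genes were named, while 4 were without the BA column at 4 h and 5 without the BF column at 12 h. The profiles most like that of A2M were those of LBP (0.98), HPX (0.96) and ORM1 (0.94).

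Further positive acute phase genes were read from a list of 30, of which 29 were found. At 0 h 13 of the 29 were at least 2-fold higher than Control in BF and 14 in BA, with 0 lower in either, and their median log2 ratio was 0.51 and 0.70. The kininogen gene KNG1L1 had the largest ratio of the 29 in both groups, followed by KNG1 in BF and by SPINK3 in BA. Kininogen products inhibit cysteine proteases and release kinins. KNG1L1 stood at 282.4 RPKM in Control against 9380 in BF and 9716 in BA, and KNG1 at 1036 RPKM against 12811 and 11521. The kininogen genes of the rat resemble each other closely, so reads may have been split between them. SPINK3, a trypsin inhibitor made by the pancreas as well, had 10.7 RPKM in Control, 62.3 in BF and 151.0 in BA, and the metallothionein gene MT2A at 38.0, 313.9 and 238.0 RPKM. In Control 13 of the 29 rose and 1 fell within 4 h of PH, led by MT2A (to 1271 RPKM), MT1A (from 59.3 to 884.7), IL1RN, the IL-1 receptor antagonist (from 12.7 to 151.2), and KNG1L1 (to 2665). The time course of this list was more mixed than that of the 10. Of the 29, 10 had their highest value at 12 h in Control, 9 in BF and 3 in BA, whereas of the 10 genes 8, 9 and 8 did. The share of all genes that were highest at 12 h was not computed, so these counts compare the lists only with each other. CD14, HAMP, IL1RN, MT1A and NNMT were highest at 4 h in all 3 groups.

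Of 8 cytokine ligand genes 7 were found, and 3 had a mean of at least 1 RPKM. IL6 did not exceed 0.23 RPKM in any column, TNF 0.63 and OSM 0.36. IL1B ranged from 1.62 to 7.20 RPKM and IL1A from 4.36 to 14.0, and 0 of the 3 tested ligands changed by 2-fold at 0 h in BF or BA or at 4 h in Control. Of 8 receptor genes 6 were found. The oncostatin M receptor OSMR was at 0.88 RPKM in Control at 0 h, 4.08 in BF and 12.2 in BA, and was the 1 receptor of the 6 that was 2-fold higher in BF and in BA. Within 4 h of PH in Control, IL1R1 rose from 44.8 to 259.1 RPKM, OSMR from 0.88 to 7.15 and TNFRSF1A from 57.3 to 124.0. The gp130 gene IL6ST stayed between 43.9 and 84.0 RPKM in all columns.

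Of 16 genes of transcription factors and feedback regulators of this response 13 were tested. At 0 h 3 were 2-fold higher in BF and 1 in BA, with STAT3 in both. The others in BF were NFKBIA, at 39.8 RPKM against 17.8 in Control, and NFKBIZ, at 20.8 against 8.1. Within 4 h of PH in Control 5 rose and 1 fell. SOCS3, the feedback inhibitor of STAT3 signalling, went up in all 3 groups, in Control from 11.3 to 65.1 RPKM, in BF 12.2 to 53.7 and in BA 17.4 to 85.1. JUNB rose in a like manner, 17.9 to 86.6 RPKM in Control, 15.5 to 75.5 in BF and 27.8 to 77.2 in BA. CEBPB, which encodes C/EBP beta, rose from 35.7 to 144.8 RPKM in Control, and was at 35.7 and 36.2 in BF and at 37.0 and 66.2 in BA. CEBPA, the gene of C/EBP alpha, was lower after 4 h in each group, at 35.4 RPKM after 110.5 in Control, 30.8 after 79.8 in BF and 30.4 after 87.6 in BA.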

How the data were processed

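RNA was isolated from whole rat liver, poly(A)+ libraries were made with the Illumina TruSeq kit, and single reads were taken. The authors converted the reads to RPKM and deposited 1 table, with 2 runs averaged per column. The submitters' processing notes name CASAVA, Bowtie 0.12.2 and the builds rn4 and mm8, without their roles. The annotation and the weighting of the runs are not given in the sources used here, and the depth is unknown. RPKM values were used as deposited. Of 14692 genes, 1 had no value, and 8459 had a mean of at least 1 RPKM and served as background. Ratios were log2 after adding 1 RPKM, called at 2-fold, with no test of a single time, since each group and time has 1 column, and no fit took the times as replicates. The computation was tested on simulated data.

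The 10 genes and all lists were chosen with earlier results of these data known. All 10 were described. Genes named from the other lists were chiefly among the 4 of a list with the largest ratios at 0 h or at 4 h in Control. Not all such genes were named, and lists of macrophage and cholangiocyte markers were read but are not described. The 5 genes most correlated with the mean profile of the 10 (3 for A2M) were named. IL6, TNF, OSM, IL6ST, CEBPA after 4 h, LOC360228, the neutrophil genes and those highest at 4 h were chosen after their values were seen. Alternatives were pseudocounts of 0.1 and 10 RPKM, other filters on low values, and columns rescaled on the median gene, on the total outside the 10 genes or, chosen after seeing the data, outside ALB. RefSeq sequences carry GRCr8 coordinates, a build other than that of the table. Python 3.11.15, numpy 2.4.6, pandas 2.3.3 and matplotlib 3.10.9 were used.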

Additional observations from a re-analysis of the deposited data

Results flagged for a closer look

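In 7 cases a gene moved in opposite directions in 2 groups between 0 h and a later time, with log2 ratios at least 1 apart. These contrasts were not tested. Each ratio is to the 0 h column of its own group, and A2M, LBP, HP and HPX were already raised at 0 h in BF and BA. The contrasts with Control thus carry the gap at 0 h. At 24 h itself A2M was at 1142 RPKM in Control and 1272 in BF. LBP at 4 h had a log2 ratio of 2.39 in Control and -0.14 in BF, a difference of 2.53. A2M at 24 h had 7.05 in Control and -0.48 in BF, a difference of 7.53, and 1.22 in BA, so that BF minus BA was -1.70. LBP at 24 h had 2.62 in Control, -0.53 in BF and -0.01 in BA, with differences of 3.15 and 2.63. HP at 24 h had 1.71 in Control and -0.19 in BF, a difference of 1.90, and HPX had 1.87 and -0.10, a difference of 1.96.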

How the results depend on the processing

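With no replicates, a ratio was taken as moved where it shifted by 1.5-fold or more, and a count where it changed by more than 1.5 times. No called ratio changed sign under any alternative. Within these limits stayed 134 medians, with 1 moved, and 257 counts, with 13 moved, and the pseudocounts and the scaling outside ALB moved none of them. Rescaled on the median gene, the genes at least 2-fold higher in BA than in Control numbered 1 at 12 h (0 as deposited) and 3 at 24 h (1), those that rose in BA 2 at 4 h (1) and 1 at 24 h (2), and those that fell from 12 to 24 h 8 in Control (5), 8 in BF (2) and 5 in BA (1). The time of the highest value moved to 12 h for HP and CRP in Control and to 4 h for HP in BA. Scaled on the total outside the 10 genes, those higher in BA than in Control numbered 3 at 4 h (5) and 1 at 12 h (0), those that rose by 4 h 4 in BF (2) and 0 in BA (1), those that rose from 4 to 12 h 4 in BF (2) and 4 in BA (1), and the median log2 ratio from 4 to 12 h in BA was 0.94 (0.27). This scaling divides by a total that the 10 genes themselves lower. That total also holds ALB, at 303637 RPKM in BA at 4 h against 87628 at 0 h and 41049 at 12 h. The part of ALB in the moves that use the BA column at 4 h was not tested. Of the ratios of single genes 1330 stayed within the limit and 20 moved, 10 of them under a pseudocount of 10 RPKM (A2M and LCN2 against Control at 0 h). No paired analysis was possible because the columns carry no replicate numbers. A fit that pairs the groups over the 4 times, taking times as replicates, was not made.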
